A study of Mus musculus with 8 samples.

Results

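Microglia, the resident immune cells of the spinal cord, were followed through 9 genes that mark them: Aif1, Cx3cr1, P2ry12, Tmem119, Csf1r, Itgam, Trem2, Tyrobp and Cd68. They were chosen by symbol, and each matched a single identifier among the 49585 in the deposited tables. All 9 passed the filter of a mean of at least 1 FPKM (fragments mapped to a transcript, scaled to its length in kilobases and to the library's depth) over the libraries, which left 15061 genes for testing. RNA came from the dorsal horn of lumbar segments 4 to 6 of adult C57BL/6J mice, in 4 libraries labelled miR-96 knock-out and 4 labelled wild type. The labels do not say how the knock-out allele was made, whether any control carries another allele, or whether each library came from a separate animal. The spread behind every p-value is therefore that between libraries and may be partly technical. MiR-96 is a microRNA known for its role in sensory cells, and the title of the series ties its loss to sodium channels of the dorsal horn and to allodynia, in which light touch hurts. The libraries hold polyadenylated RNA and do not measure the mature microRNA, so the genotype labels were not checked by its level.

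Microglia depend on signalling through the receptor encoded by Csf1r and, when resting, carry the purine receptor P2RY12 and the fractalkine receptor CX3CR1 on their processes. Injury moves them away from this state: the resting genes then tend to be lowered, while genes of phagocytosis and of the TREM2 and TYROBP receptor complex tend to be raised. After peripheral nerve injury, microglia of the dorsal horn multiply and change, which is why their genes are read in studies of pain.

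A microRNA lowers its targets by pairing bases 2 to 8, the seed, with sites in the 3′ untranslated region (3′ UTR) of a messenger RNA. The mature miR-96-5p of the mouse (RefSeq, GRCm38.p6, chromosome 6, 30169506 to 30169528, minus strand) is shown with the seed in capitals, above the site found in a microglia gene, with the paired bases in capitals.
mmu-miR-96-5p: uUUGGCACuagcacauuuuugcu
Tmem119 3′ UTR: gcttggccattgctgGTGCCAAggc
The longest annotated 3′ UTR of each of the 9 genes was searched on its own strand for GTGCCAA, the match to bases 2 to 8, and for TGCCAAA, the shorter match followed by A; the motifs overlap by 6 bases. Tmem119 alone held a match, to GTGCCAA at bases 115 to 121 of a 3′ UTR of 1167 bases (GRCm38, chromosome 5, 113794775 to 113794781, minus strand). Among 13050 tested genes with a 3′ UTR of at least 50 bases, 20.5% held either motif, at a median 3′ UTR length of 1246 bases. The 3′ UTRs of Aif1, Cd68, Tyrobp and Trem2 were short, at 118, 158, 173 and 249 bases. Those of P2ry12, Itgam, Csf1r and Cx3cr1 were of 937, 1114, 1669 and 2587 bases.

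No microglia gene differed between the genotypes past the threshold, an adjusted p under 0.05 in limma after Benjamini-Hochberg correction over all 15061 genes. The threshold was passed by 0 of the 9 and by 0% of all genes. At an unadjusted limma p under 0.05, 0 of the 9 were counted, against 5.52% of all genes (1.83% lower and 3.69% higher in knock-out libraries). With libraries given weights estimated from their spread, 2 of the 9 were counted at that level, P2ry12 and Tyrobp, against 33.3% of all genes; neither passed the adjusted threshold, which 10.8% of all genes then did. Without wild type replicate 4, 2 of the 9 were counted, Tyrobp and Trem2, against 20.9% of all genes. In each of the 9 the range of the knock-out libraries overlapped that of the wild-type libraries, whereas 3.03% of all genes had ranges that did not. On the log2(FPKM + 1) scale 7 of the 9 had a lower mean in knock-out libraries, beside 46.9% of all genes, with a median log2 fold change (knock-out minus wild type) of -0.18 over the 9 and 0.01 over all genes. That median depended on the libraries and on the processing. Without wild type replicate 1 it was 0.02, with 4 of the 9 lower. It was -0.05 after each library's trend with transcript length was removed, with 6 of the 9 lower, -0.09 without knock-out replicate 2, -0.10 with library weights and -0.09 with a pseudocount of 5. Over the 8 genes with a mean of at least 5 FPKM it was -0.11. It was further from 0 without wild type replicate 4, at -0.25, and with quantile normalization, at -0.24. Under the remaining alternatives it lay between -0.19 and -0.16.

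Wild type replicate 1 stood apart from the other libraries in several ways. It held the highest FPKM of the 8 libraries in 7 of the 9 microglia genes, a position it took in 30.0% of all genes. Its excess ran with transcript length over the whole table: relative to the mean of wild type replicates 2 to 4, its median FPKM ratio was 1.32 in genes with transcripts of up to 1000 nt, 1.23 in those over 1000 and up to 2000 nt, 1.01 up to 4000 nt and 0.824 beyond. Red blood cell markers were high there too, with Hbb-bs, a beta globin, at 8.73 to 20.1 FPKM in knock-out libraries, at 114 FPKM in wild type replicate 1 and at 3.65 to 20.2 FPKM in wild type replicates 2 to 4. By the 1-fragment steps of low values, and assuming fragments of 200 nt, depth was between 32000000 and 43100000 fragments per library, with 34400000 in wild type replicate 1. In bulk tissue, fewer microglia and less RNA per microglial cell cannot be told apart.

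The plot of FPKM by library shows the 9 genes side by side.

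**Figure D1:**
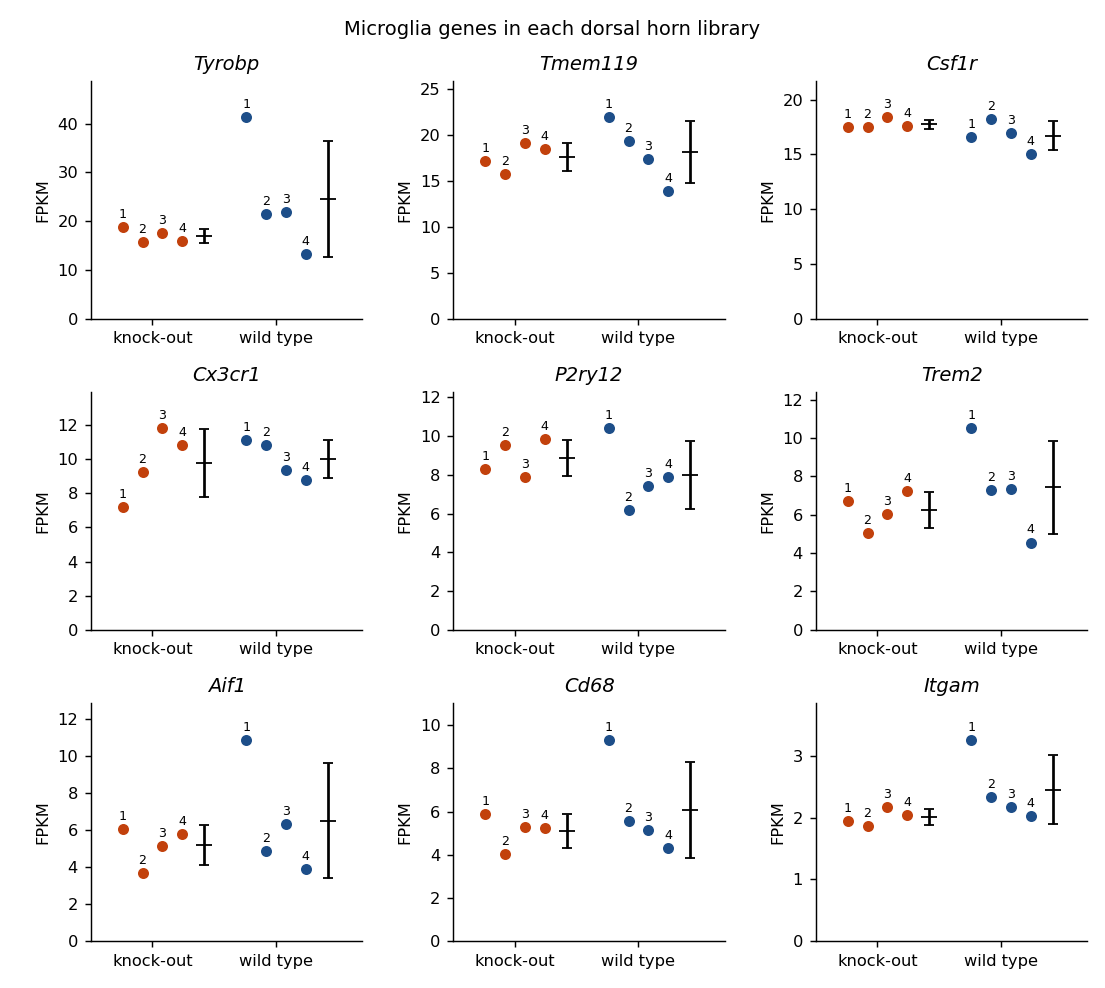
FPKM of the 9 microglia genes (vertical axes, linear from 0) in each of the 4 knock-out libraries (orange, left) and 4 wild-type libraries (blue, right), with the replicate number above each point and mean and SD as black bars. Wild type replicate 1 is the highest point for 7 genes, at 41.3 FPKM for Tyrobp against at most 21.9 elsewhere, and the ranges of the genotypes overlap in all 9 panels.

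Among the receptors and surface proteins of resting microglia, Csf1r showed the least spread. Csf1r (ENSMUSG00000024621) encodes the receptor for CSF1 and IL-34, without whose signal microglia die, and lies on chromosome 18 with a deposited locus of 61105572 to 61132149 on GRCm38, shorter at its start than the 61100598 to 61132149 of GENCODE M21. It was at 17.5, 17.5, 18.4 and 17.6 FPKM in knock-out replicates 1 to 4, against 16.6, 18.2, 17.0 and 15.0 FPKM in wild type replicates 1 to 4. All libraries were close, and wild type replicate 1 was not raised. The coefficient of variation was 2.49% in knock-out and 8.07% in wild-type libraries. Its log2 fold change was 0.08 (SE 0.08, limma adjusted p = 0.687), with a 95% interval of -0.11 to 0.27, a ratio of FPKM + 1 between 0.93 and 1.21. Exons of Csf1r overlap those of Hmgxb3 on the other strand, and whether strand was used in counting is not given in the sources used here.

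Tmem119 (ENSMUSG00000054675, chromosome 5, 113793729 to 113800516, minus strand) encodes a membrane protein used to tell microglia from infiltrating macrophages, and it carried the seed match shown above. Knock-out libraries held 17.1, 15.7, 19.1 and 18.4 FPKM and wild-type libraries 21.9, 19.3, 17.4 and 13.9 FPKM. The knock-out values lay within the wild-type range, whose ends were wild type replicates 1 and 4. Its log2 fold change was -0.03 (SE 0.13, 95% interval -0.32 to 0.27, limma adjusted p = 0.938). Without wild type replicate 1 it was 0.07.

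Cx3cr1 (ENSMUSG00000052336, chromosome 9, 119901616 to 120069879, minus strand) encodes the receptor for fractalkine, a chemokine made by neurons. It was at 7.22, 9.25, 11.8 and 10.8 FPKM in knock-out libraries and at 11.1, 10.8, 9.36 and 8.79 FPKM in wild-type libraries. Both the lowest and the highest value were from knock-out libraries, replicates 1 and 3. The log2 fold change was -0.05 (SE 0.15, 95% interval -0.37 to 0.28, limma adjusted p = 0.898).

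P2ry12 (ENSMUSG00000036353, chromosome 3, 59216272 to 59262871, minus strand) encodes the receptor by which microglial processes move toward ADP. Its values were 8.31, 9.52, 7.91 and 9.83 FPKM in knock-out libraries and 10.4, 6.21, 7.42 and 7.87 FPKM in wild-type libraries. Wild type replicate 1 was the highest of the 8, and the other wild-type libraries lay below every knock-out library. With all 8 libraries the log2 fold change was 0.16 (SE 0.14, 95% interval -0.16 to 0.48, limma adjusted p = 0.658). Without wild type replicate 1 it was 0.28 (SE 0.11, limma unadjusted p = 0.0333, adjusted p = 0.83), beside 3.74% of all genes at an unadjusted p under 0.05. It was 0.06 without wild type replicate 2, the lowest library. P2ry12 lies within Med12l, whose exons it overlaps on the other strand. Med12l was at 8.97, 8.86, 7.96 and 7.49 FPKM in knock-out libraries and at 2.15, 6.44, 7.02 and 6.51 FPKM in wild-type libraries. All of the first were above all of the second, as in 1.91% of all genes tested. The part of Med12l reads in the P2ry12 values was not tested.

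The other 5 genes belong to the receptor complexes, phagocytosis and cytoskeleton of microglia and are shared with other macrophages. Tyrobp (ENSMUSG00000030579, chromosome 7, 30413760 to 30417585, plus strand) encodes DAP12, the signalling adaptor that pairs with TREM2. It was at 18.8, 15.7, 17.5 and 15.9 FPKM in knock-out libraries and at 41.3, 21.5, 21.9 and 13.3 FPKM in wild-type libraries. The knock-out libraries were close together and lay between wild type replicate 4 and the other wild-type libraries. Tyrobp had the largest log2 fold change in size of the 9, -0.40 (SE 0.26, limma adjusted p = 0.62), and the widest 95% interval, -0.99 to 0.19. Without wild type replicate 1, which held 2.18 times the mean of the other wild-type libraries, it was -0.12 (SE 0.16).

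Trem2 (ENSMUSG00000023992, chromosome 17, 48346401 to 48354147, plus strand) encodes a lipid-sensing receptor that drives the move of microglia into a phagocytic state. Values were 6.73, 5.06, 6.03 and 7.23 FPKM in knock-out libraries and 10.5, 7.28, 7.36 and 4.55 FPKM in wild-type libraries. Wild type replicates 1 and 4 were the highest and the lowest of all, as for Tyrobp. The log2 fold change was -0.18 (SE 0.20, 95% interval -0.63 to 0.27, limma adjusted p = 0.719), and -0.01 without wild type replicate 1.

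Aif1 (ENSMUSG00000024397, chromosome 17, 35170991 to 35176068, minus strand) encodes IBA1, an actin-binding protein whose antibody is the usual stain for microglia. It was at 6.07, 3.66, 5.13 and 5.81 FPKM in knock-out libraries and at 10.9, 4.89, 6.35 and 3.91 FPKM in wild-type libraries. The level in wild type replicate 1 was far above the rest, and the other wild-type libraries overlapped the knock-out libraries. Its log2 fold change was -0.22 (SE 0.25, 95% interval -0.79 to 0.35, limma adjusted p = 0.724), and 0.03 without that library.

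Cd68 (ENSMUSG00000018774, chromosome 11, 69664213 to 69666153, minus strand) encodes a lysosomal membrane glycoprotein of phagocytes. Its FPKM were 5.89, 4.02, 5.28 and 5.24 in knock-out libraries and 9.34, 5.56, 5.13 and 4.33 in wild-type libraries, with wild type replicate 1 again the single high value. The log2 fold change was -0.18 (SE 0.20, 95% interval -0.62 to 0.26, limma adjusted p = 0.711), and 0.02 without wild type replicate 1.

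Itgam (ENSMUSG00000030786, chromosome 7, 128062640 to 128118491, plus strand) encodes CD11b, the alpha chain of complement receptor 3. It was the lowest of the 9, at 1.94, 1.87, 2.18 and 2.05 FPKM in knock-out libraries and 3.27, 2.34, 2.18 and 2.03 FPKM in wild-type libraries. Wild type replicate 1 was the single high library, and wild type replicates 3 and 4 were close to the knock-out libraries. The log2 fold change was -0.19 (SE 0.13, 95% interval -0.49 to 0.11, limma adjusted p = 0.623), and -0.08 without wild type replicate 1. At levels this near the pseudocount of 1, a fold change on the log2(FPKM + 1) scale understates the change.

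**Figure D2:**
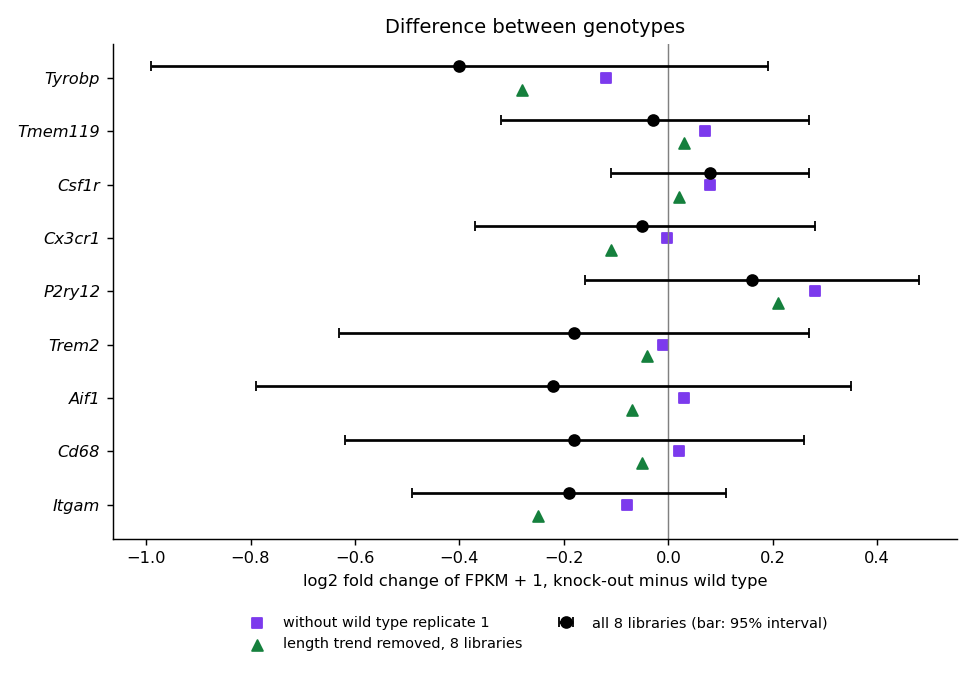
Log2 fold change of FPKM + 1, knock-out minus wild type (horizontal axis), for the 9 genes from all 8 libraries with the 95% limma interval (black), without wild type replicate 1 (purple squares) and after removal of each library's length trend (green triangles). Every black interval includes 0, and the purple squares lie between -0.12 for Tyrobp and 0.28 for P2ry12.

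The intervals bound what a difference could be in these libraries. For Csf1r, Tmem119 and Cx3cr1 they reach at most a ratio of 1.21 upward and 0.771 downward on the FPKM + 1 scale. They are wider for Aif1, from 0.579 to 1.28, and for Tyrobp, from 0.504 to 1.14. From FPKM, the length of the longest coding transcript and the estimated depth, the 9 genes rested on about 110 fragments (Aif1, lowest library) to about 3700 fragments (Csf1r, highest library), and counting alone would give a coefficient of variation of 9.6% at the first of these. Aif1 varied by 20.9% among knock-out and by 47.3% among wild-type libraries.

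Since FPKM are per length, the levels of the genes can be set in order. Over the 8 libraries Tyrobp averaged 20.7 ± 8.79 FPKM, Tmem119 17.8 ± 2.43 and Csf1r 17.2 ± 1.08 (SD, n = 8). Tyrobp was above Tmem119 in 5 of 8 libraries, and Tmem119 above Csf1r in 5 of 8, so these 3 were not separated. Cx3cr1, at 9.89 ± 1.5 FPKM, was below Csf1r in 8 of 8. Cx3cr1 was above P2ry12 (8.43 ± 1.39 FPKM) in 6 of 8 libraries, P2ry12 above Trem2 (6.84 ± 1.81 FPKM) in 6 of 8, and Trem2 above Aif1 (5.84 ± 2.25 FPKM) in 7 of 8. Aif1 and Cd68 (5.60 ± 1.63 FPKM) exchanged places, with Aif1 higher in 4 of 8 libraries, and both stood apart from Itgam at 2.23 ± 0.446 FPKM, which Cd68 exceeded in 8 of 8.

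The excess of wild type replicate 1 was greater for the genes with short transcripts, with Itgam as an exception. Its ratio to the mean of wild type replicates 2 to 4 was 2.18 for Tyrobp (597 nt), 2.15 for Aif1 (875 nt), 1.64 for Trem2 (1088 nt) and 1.86 for Cd68 (1230 nt). It was 1.3 for Tmem119 (2242 nt), 1.45 for P2ry12 (2344 nt), 1.15 for Cx3cr1 (4493 nt), 1.5 for Itgam (4682 nt) and 0.991 for Csf1r (4701 nt). All 9 ratios were above the median of tested genes in their own length range. After each library's trend with length was removed, the mean of the 9 genes in wild type replicate 1 was still 0.34 above their means over all libraries on the log2(FPKM + 1) scale, against 0.47 before. The log2 fold changes were then -0.28 for Tyrobp, -0.25 for Itgam, -0.07 for Aif1, -0.05 for Cd68 and -0.04 for Trem2. Wild type replicate 4 had the opposite position: it was the lowest of the 8 libraries in 4 of the 9 genes, and the mean of the 9 was 0.28 below their means over all libraries, or 0.23 below with the length trend removed.

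**Figure D3:**
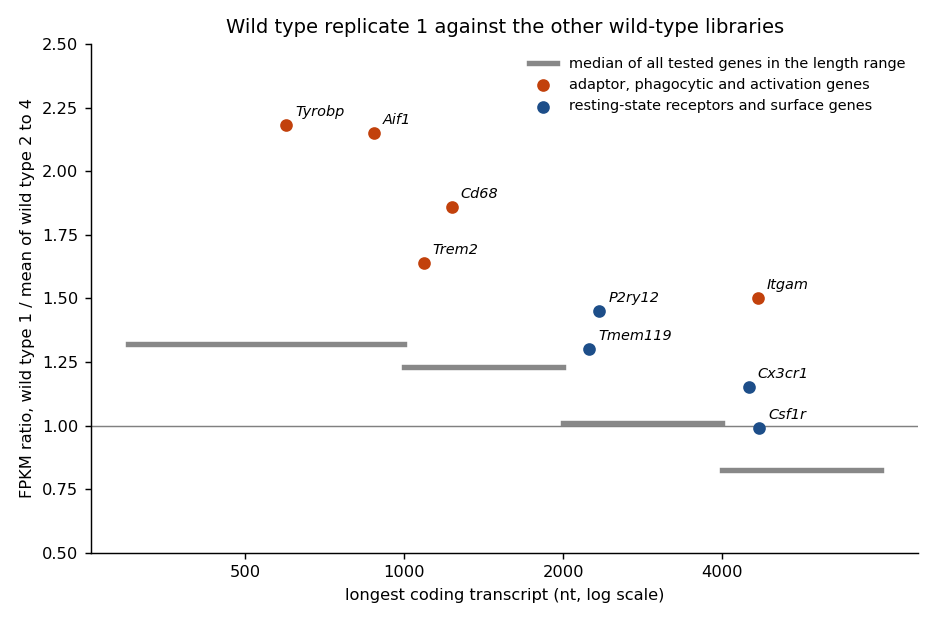
FPKM in wild type replicate 1 divided by the mean of wild type replicates 2 to 4 (vertical axis) against the length of the longest coding transcript (horizontal axis, log scale) for resting-state genes (blue) and the other 5 (orange). Grey bars give the median of all tested genes in 4 length ranges (the first and last ranges are open and drawn to an arbitrary end), and each of the 9 points lies above the bar of its range.

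The profile of the 9 over the 8 libraries, as their mean standardized log2 value, was most like that of Zfyve21 (Pearson r 0.991), Sh3gl1 (0.987), Mrpl57 (0.98), Faim (0.979), the ribosomal protein gene Rps27 (0.978) and Lamtor2 (0.978) over both genotypes together. Each was highest in wild type replicate 1 and lowest in wild type replicate 4, as with Rps27 at 386, 313, 433 and 413 FPKM in knock-out libraries and at 916, 516, 362 and 227 FPKM in wild-type libraries. The points share their libraries, so these values describe what the libraries had in common and carry no p.

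Markers of other cells gave the setting of these values. Macrophages of the meninges and vessels share most of the 9 genes. Their 8 own markers were Mrc1, Cd163, Lyve1, Pf4, Ms4a7, F13a1, Cbr2 and Folr2. These summed to between 8.03 and 13.6 FPKM in knock-out libraries, against 6.04 to 10.1 FPKM in wild-type libraries. Wild type replicates 2 to 4, at 6.04 to 6.41 FPKM, lay below every knock-out library. None of the 8 markers was at 0 in any library, and their sum was well under that of the 9 microglia genes. The sum of the 9 was 82.2 to 93.3 FPKM in knock-out and 73.7 to 135 FPKM in wild-type libraries. Neutrophil and monocyte markers (8 genes) summed to 2.12 to 24.1 FPKM in knock-out and 0.549 to 24 FPKM in wild-type libraries. Of that list Ly6g, a defining neutrophil gene, was at 0 in all knock-out libraries and in wild type replicates 3 and 4, and S100a9 was at 0 in wild type replicate 4. Lymphocyte markers (8 genes) summed to at most 0.732 FPKM in knock-out and 1.62 FPKM in wild-type libraries, and 7 of the 8 were at 0 in some library. The 5 red blood cell markers summed to 17.8 to 39.3 FPKM in knock-out libraries and 5.96 to 199 FPKM in wild-type libraries. Their sum was highest in wild type replicate 1, as was that of the microglia genes. Lymphocyte, neuron, oligodendrocyte and endothelial markers also had their highest sum in that library, at 1.62, 1819, 15340 and 192 FPKM. Those of astrocytes, of macrophages of the meninges and vessels, and of neutrophils and monocytes did not. The part of macrophages of the meninges and vessels, of blood and of its white cells in the microglia values was not tested.

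**Figure D4:**
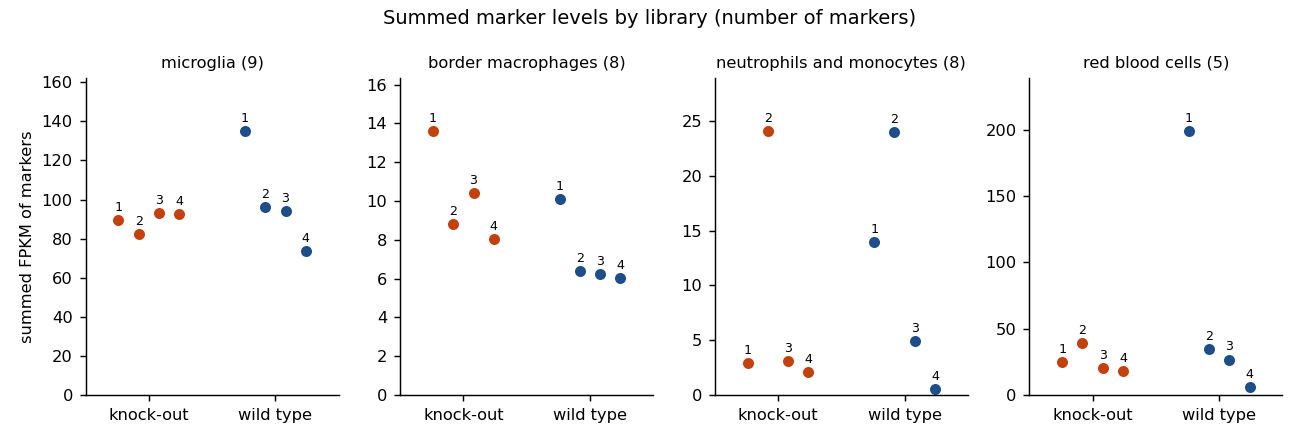
Summed FPKM of marker genes (vertical axes, linear from 0) for microglia, border macrophages, neutrophils and monocytes, and red blood cells in each knock-out library (orange, left) and wild-type library (blue, right), with replicate numbers. Wild type replicate 1 is the highest of all libraries for microglia at 135 FPKM and for red blood cells at 199 FPKM. It is not the highest of all for border macrophages or for neutrophils and monocytes. Among wild-type libraries alone it is highest for border macrophages, at 10.1 FPKM against 6.04 to 6.41 FPKM.

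Markers of the main cell types of nervous tissue were read too, and none was at 0 in any library. They are not particular to the lumbar dorsal horn, so they cannot check that label. Sums of 6 markers each were 1477 to 1647 FPKM in knock-out and 1496 to 1819 FPKM in wild-type libraries for neurons, 3148 to 3461 and 3152 to 3563 FPKM for astrocytes, and 10194 to 11290 and 9495 to 15340 FPKM for oligodendrocytes. Endothelial markers summed to 136 to 185 FPKM in knock-out and 157 to 192 FPKM in wild-type libraries.

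Further genes of resting microglia were read beside the 9. Of 18 listed, 17 were tested, and 0 passed the adjusted threshold in limma, with 0 at an unadjusted p under 0.05. By direction 7 had a higher and 10 a lower mean in knock-out libraries, with a median log2 fold change of -0.03. The 3 of lowest p were Mertk, a receptor for the engulfment of dying cells, Cd33, an inhibitory receptor for sialic acid, and Tgfbr1, the TGF-beta receptor that keeps microglia in their resting state. Mertk was at 7.97, 6.20, 5.92 and 8.16 FPKM in knock-out libraries and at 4.69, 6.56, 5.12 and 5.83 FPKM in wild-type libraries, with 0.30 as log2 fold change (SE 0.14, limma adjusted p = 0.62). Cd33 averaged 3.79 ± 0.406 and 3.03 ± 0.401 FPKM and Tgfbr1 11.3 ± 1.29 and 9.66 ± 1.09 FPKM in knock-out and wild-type libraries (SD, n = 4 each), with log2 fold changes of 0.25 and 0.21. All 3 have transcripts over 4000 nt, a length at which the median log2 fold change of all tested genes was 0.12, and after the length trend was removed theirs were 0.25 for Mertk, 0.13 for Cd33 and 0.09 for Tgfbr1. Over the list, 9 genes were higher and 8 lower in knock-out libraries without wild type replicate 1. Beside the counts of this list and of those below, 46.9% of all genes tested were lower in knock-out libraries when all libraries were used. An unadjusted p under 0.05 in limma was met by 5.52% of them.

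Disease-associated microglia raise a set of lipid and lysosomal genes, only some of them downstream of TREM2. Of 19 listed, 14 were tested: 4 had a higher and 10 a lower mean in knock-out libraries (median log2 fold change -0.13), with 0 past the adjusted threshold in limma and 0 at an unadjusted p under 0.05. In 9 of the 14 wild type replicate 1 was highest, and the median was -0.02 without it and -0.04 after the length trend was removed. Levels within the list ran widely, and the genes given next were chosen after their values were seen. Apoe, an apolipoprotein that astrocytes also make, was at 1938 to 2358 FPKM in knock-out and 1934 to 2964 FPKM in wild-type libraries. Spp1, osteopontin, was at 46.9 to 78.3 FPKM in knock-out and 35.4 to 65.9 FPKM in wild-type libraries. At the low end stood Itgax, the integrin CD11c, at 0.107 to 0.323 FPKM in knock-out and 0.088 to 0.299 FPKM in wild-type libraries. Cst7, a protease inhibitor, was at 0 to 0.334 FPKM in knock-out and 0 to 0.436 FPKM in wild-type libraries. Clec7a, a receptor for fungal glucans, was at 0.378 to 0.928 FPKM in knock-out and 0.532 to 1.35 FPKM in wild-type libraries. Ctsd, the protease cathepsin D, was at 107, 97.6, 118 and 92.9 FPKM in knock-out libraries and at 174, 134, 123 and 93.1 FPKM in wild-type libraries (log2 fold change -0.30, SE 0.17, limma adjusted p = 0.62). As in 7 of the 9 microglia genes, wild type replicate 1 was highest, and the log2 fold change of Ctsd without it was -0.16. Igf1, a growth factor of activated microglia, and Ctsb, cathepsin B, had log2 fold changes of 0.28 (SE 0.19) and -0.11 (SE 0.10), and that of Igf1 was 0.11 after the length trend was removed.

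The ligands of these receptors were read as well. Cx3cl1, fractalkine, was at 264, 296, 298 and 275 FPKM in knock-out libraries and at 241, 296, 284 and 325 FPKM in wild-type libraries, and its log2 fold change was -0.01 (SE 0.11, limma adjusted p = 0.972). The ligands of the CSF1 receptor averaged 25.2 ± 2.12 and 27.3 ± 4.96 FPKM for Csf1, and 22.5 ± 2.88 and 24.8 ± 5.30 FPKM for Il34, in knock-out and wild-type libraries (SD, n = 4 each). Csf1 is the signal by which injured sensory neurons act on microglia of the cord, and its log2 fold change was -0.10 (SE 0.13), or -0.0088 without wild type replicate 1. That of Il34 was -0.12 (SE 0.14), or 0.01 without the same library. Itgb2, the beta chain that pairs with CD11b, had a log2 fold change of -0.04 (SE 0.15). Within the list of ligands, partners and signalling genes 15 of 16 were tested, 6 with a higher and 9 with a lower mean in knock-out libraries (median -0.02), and 8 higher and 7 lower without wild type replicate 1 (median 0.01). There 0 passed the adjusted threshold and 1 had an unadjusted p under 0.05 in limma, beside 5.52% of all genes tested. This was Fyb, an adaptor of blood cell signalling, at 3.06, 4.65, 3.23 and 3.59 FPKM in knock-out libraries and 1.23, 3.26, 2.61 and 2.36 FPKM in wild-type libraries (log2 fold change 0.49, SE 0.20, limma adjusted p = 0.62). Wild type replicate 1 was its lowest library, and without it the log2 fold change was 0.30.

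Syk, the kinase that docks on TYROBP, was the only tested gene of the further lists whose knock-out libraries all lay above all wild-type libraries, as they did in 1.91% of all genes tested. It was at 1.57, 1.23, 1.25 and 1.37 FPKM in knock-out libraries and at 1.02, 1.06, 0.974 and 0.977 FPKM in wild-type libraries. Its log2 fold change was 0.23 (SE 0.12, limma adjusted p = 0.62) and did not change without wild type replicate 1, but after the length trend was removed it was 0.13 (SE 0.13). Adam10, which sheds fractalkine and TREM2, averaged 44.7 ± 3.08 and 37.9 ± 5.55 FPKM in knock-out and wild-type libraries (SD, n = 4 each, log2 fold change 0.24).

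Of 10 transcription factors of the myeloid lineage 8 were tested, 3 with a higher and 5 with a lower mean in knock-out libraries (median log2 fold change -0.05). Among them 0 passed the adjusted threshold and 1 had an unadjusted p under 0.05 in limma, beside 5.52% of all genes tested. The direction turned without wild type replicate 1, with 6 higher, 2 lower and a median of 0.09. The gene at an unadjusted p under 0.05 was Mef2c, which neurons also express, at 13.2, 13.6, 10.6 and 13 FPKM in knock-out libraries and at 6.90, 8.20, 8.90 and 13.8 FPKM in wild-type libraries (log2 fold change 0.41, SE 0.18, limma adjusted p = 0.62), and its log2 fold change was 0.27 after the length trend was removed. Mef2a, a related factor, had 0.14 as log2 fold change (SE 0.13). Spi1, which encodes PU.1, the factor without which no microglia form, was at 4.90, 3.59, 4.63 and 4.00 FPKM in knock-out libraries and at 7.32, 5.05, 3.73 and 2.96 FPKM in wild-type libraries. Its highest and lowest libraries were wild type replicates 1 and 4, as for Tyrobp and Trem2, and its log2 fold change was -0.08 (SE 0.21), or 0.12 without wild type replicate 1. Spi1 was named after its values were seen, for its link to the promoters that follow.

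PU.1 binds GAGGAA, the PU box, in many macrophage promoters. Promoters of 6 of the 9 genes were searched for these letters, because several of the 9 varied together. RefSeq promoter windows (GRCm38.p6, 250 bases before to 50 after the start) of Aif1, Cd68, Cx3cr1, Itgam, P2ry12 and Trem2 were searched. Those of Tyrobp, Tmem119 and Csf1r were not. GAGGAA or its reverse complement TTCCTC was in the windows of 4 of the 6 genes searched, against 28.3% of 32851 windows of all genes. The stretches around the match nearest the start are printed in the direction of transcription, with the motif in capitals: Aif1 (chr17:35176027-35176086, minus strand), Cd68 (chr11:69666121-69666168, minus), Itgam (chr7:128062598-128062657, plus) and Trem2 (chr17:48346334-48346393, plus).
Aif1: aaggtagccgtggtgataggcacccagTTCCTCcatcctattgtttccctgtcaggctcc
Cd68: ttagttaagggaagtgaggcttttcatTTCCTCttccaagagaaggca
Itgam: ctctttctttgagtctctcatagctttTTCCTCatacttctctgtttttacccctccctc
Trem2: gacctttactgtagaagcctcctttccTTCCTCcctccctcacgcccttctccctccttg
In all 4 this match was on the opposite strand. Cd68 held 2 matches and Itgam 3 in the window. The letters were not in the windows of Cx3cr1 and P2ry12, which says nothing on whether the factor binds there. The part of PU.1 in the shared variation of the genes was not tested.

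Genes by which spinal microglia are known to act in pain gave no call. Of 16 listed 11 were tested, 4 with a higher and 7 with a lower mean in knock-out libraries (median log2 fold change -0.01), 0 past the adjusted threshold and 0 at an unadjusted p under 0.05 in limma. With wild type replicate 1 left out, 7 were higher and 4 lower (median 0.02). P2rx4, the ATP-gated channel raised in microglia after nerve injury, was at 13.5, 14.2, 15.9 and 15.7 FPKM in knock-out libraries and at 16.8, 14.2, 14.6 and 14.8 FPKM in wild-type libraries, and was named after its values were seen. Bdnf, a neurotrophin that neurons make as well, had the lowest p of the list, at 2.58, 3.50, 2.80 and 3.36 FPKM in knock-out libraries and 2.17, 2.24, 1.79 and 3.31 FPKM in wild-type libraries (log2 fold change 0.28, SE 0.15, limma adjusted p = 0.62). Hpgds, a prostaglandin D synthase, and Casp1, the protease that matures interleukin-1 beta, had log2 fold changes of 0.17 (SE 0.24) and -0.12 (SE 0.13). The cytokine genes Il1b and Tnf were under the filter, Il1b at up to 0.307 FPKM in knock-out and 0.385 FPKM in wild-type libraries and Tnf at up to 0.0213 and 0.134 FPKM.

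**Figure D5:**
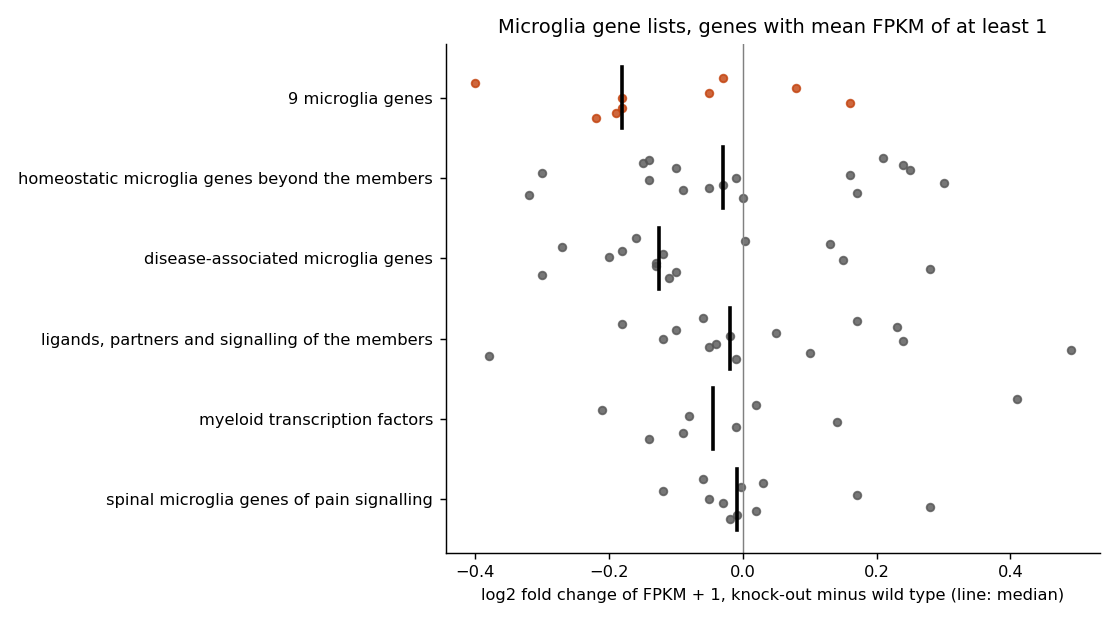
Log2 fold change of FPKM + 1, knock-out minus wild type (horizontal axis), of each tested gene in the 9 microglia genes (orange) and 5 further lists (grey), with the list median as a vertical line; vertical scatter within a row has no meaning. The medians lie between -0.18 for the 9 microglia genes and -0.01 for genes of pain signalling, and each list has genes on both sides of 0.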

How the data were processed

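PolyA RNA of the lumbar dorsal horn was extracted with Trizol and made into libraries with the NEBNext Ultra RNA kit, per the labels' protocols. The authors deposited FPKM values for each library, one table per library; HISAT2, SAMtools and Cufflinks are named in the submitters' processing notes, without versions, roles or strand setting. Those notes name the mouse build mm8, but 91.5% of the deposited loci with a symbol equal those of GENCODE M21 on GRCm38, so symbols and coordinates are from GENCODE M21. No counts were used. Depth, estimated from the steps that 1 fragment makes in low values (97.2% to 98.7% of them within 0.15 of a whole number), was 32000000 to 43100000 fragments; fragment numbers derived from it cover counting error only.

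Genotypes were compared with limma 3.58.1 in R 4.3.3 on log2(FPKM + 1), with trended and robust empirical Bayes and a two-sided test. Genes with a mean of at least 1 FPKM were tested, with Benjamini-Hochberg adjustment over all of them and a threshold of 0.05. The procedure was tested on simulated data. The 9 genes, the further lists and the marker lists were chosen with earlier results of these data known. All 9 were named, with the 3 genes of lowest p in each further list, the ligands and partners Csf1, Il34, Cx3cl1 and Itgb2, and the 6 genes of most similar profile; genes named after their values were seen are marked as such, and the low genes of the disease-associated and pain lists were also chosen then, as were Hbb-bs and the single marker genes. Of the genes named by that rule, 1 is not reported here. No 2 libraries held identical values. Alternatives were other pseudocounts, filters, scalings, weights and blocks, and leaving out each library.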

Additional observations from a re-analysis of the deposited data

Results flagged for a closer look

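A library was singled out when its gap to the nearest of the other 3 in its genotype took up more of the group's range than Dixon's 95% limit allows. This was tested in 72 groups of 4 libraries and met in 6, and chance meets it in about 1 of 20 groups. Among the 9 microglia genes it was met once, by Csf1r in knock-out replicate 3 at 18.4 FPKM, against 17.5 to 17.6 FPKM in the other knock-out libraries, a small difference in a tight group. Knock-out replicate 3 was also apart for Il34, a ligand of the same receptor, at 26.8 FPKM against 20.6 to 21.6 FPKM, and for Mef2a, at 21.2 FPKM against 29.3 to 30.1 FPKM.

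The other 3 were summed markers. Neutrophil and monocyte markers reached 24.1 FPKM in knock-out replicate 2, against 2.12 to 3.14 FPKM in the other knock-out libraries. In wild type replicate 1 border macrophage markers summed to 10.1 FPKM, against 6.04 to 6.41 FPKM in the other wild-type libraries, and red blood cell markers to 199 FPKM, against 5.96 to 34.4 FPKM. The same library held the highest level of 7 of the 9 microglia genes.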

How the results depend on the processing

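The 9 microglia genes were refitted under 18 alternatives, and 0 of 9 passed the adjusted limma threshold under each of them (0 of 8 where a mean of at least 5 FPKM was asked, which leaves out Itgam). Of 161 values of single genes 154 kept their direction, and the lowest adjusted p was 0.0594. With library weights 1627 genes of the whole table passed the threshold, against 0 with equal weights, and 2 of the 9 had an unadjusted p under 0.05, P2ry12 (log2 fold change 0.28) and Tyrobp (-0.35); the cause was not tested. When 1 library was left out, between 0 and 1 genes of the whole table passed, the 1 without knock-out replicate 2, and between 0 and 2 of the 9 had an unadjusted p under 0.05. These were P2ry12 without wild type replicate 1 and, without wild type replicate 4, Tyrobp (-0.64) and Trem2.

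Sign changes were all near 0. Tmem119 was at 0.03 after removal of the length trend, and between -0.14 and 0.07 with 1 library left out, positive without knock-out replicate 2 (0.02), wild type replicate 1 (0.07) or wild type replicate 2 (0.0062). Cx3cr1 ranged from -0.14 to 0.07 with 1 library left out, the highest without knock-out replicate 1. Aif1 ranged from -0.39 to 0.03 and Cd68 from -0.30 to 0.02, both highest without wild type replicate 1 and lowest without wild type replicate 4. With the replicate number as a block, 0 genes and 0 of the 9 passed, and Tyrobp stayed at -0.40. The labels do not say whether same-numbered libraries of the 2 genotypes share more than a number. Their deviations from the genotype means correlated at -0.108, -0.055, 0.024 and 0.144, which cannot settle whether they were paired.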
